A study of Danio rerio with 4 samples.

Results

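The genes described here are the Sprouty, Spred and PEA3-group ETS genes together with IL17RD, a set of transcripts commonly read as output of the Ras-ERK pathway. They were taken from the count table by gene symbol, ignoring case and a trailing paralog letter, and all 10 listed genes were found among 31952 Ensembl genes. Nuclear RNA had been sequenced from cranial tissue of larvae at 5 days post-fertilisation (dpf), with 2 NRas+ libraries and 2 control libraries, each from pooled larvae. All larvae came from 1 kind of cross, in which one parent line carried mpo:BirA-Citrine and bactin:Avi-Cerulean-Rangap (allele ox128) and the other carried kita:LexPR-Cerulean and PcrysB:ECFP-LexOP:mCherry-NRas (allele ox130). NRas+ larvae had 1 µM mifepristone in the water from 24 h post-fertilisation (hpf), and control larvae of the same cross had none. According to the paper, larvae for profiling were chosen by mCherry-NRas expression in melanocytes. It does not say how untreated larvae were chosen, so the groups may also differ in selection. The mpo promoter, also called mpx, drives the biotin ligase in neutrophils, so that their nuclei were biotinylated for streptavidin pulldown. The kita promoter drives the mifepristone-dependent LexPR activator in melanocytes, and LexPR switches on mCherry-NRas there. The labels name the driver kita with the allele ox130, an allele number that the paper gives to its mitfa line, while its text, like the labels, names kita as the driver used for sequencing. Since only NRas+ larvae received the drug, an effect of mifepristone and one of the oncogene cannot be told apart in these counts. The paper tested mifepristone separately, by qPCR on pulldowns from fish with the biotagging alleles only. It reports little or no change for its candidate genes, but none of the members described here was among them.

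Receptor tyrosine kinases, among them the FGF receptors, activate Ras, which passes the signal through a cascade of kinases that ends in ERK. Active ERK raises the transcription of its own inhibitors, and these close a feedback loop. Sprouty proteins act downstream of the receptor, Spred proteins bind the Ras GTPase-activating protein neurofibromin and bring it to the membrane, and Il17rd, also known as Sef, restrains signalling at the membrane. Etv4, Etv5a and Etv5b are ETS-domain transcription factors whose genes are transcribed where FGF signalling is active in zebrafish embryos, and they carry part of the response to the nucleus. In human tumours, levels of Sprouty and ETV transcripts are among the readouts used for the activity of the pathway.

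The libraries held between 40450112 and 42365244 counts on genes in NRas+ and between 30619195 and 38915102 in controls. Levels are given as CPM, the count of a gene relative to a library total scaled by TMM, a method meant to correct for differences in RNA composition. The zebrafish gene NRAS (ENSDARG00000038225) had 23.3 and 17.3 CPM in NRas+ libraries, against 9.19 and 9.50 CPM in controls, with an adjusted p of 0.341 in edgeR's quasi-likelihood test. It checks the labels only in part, since reads of the transgene may or may not map to it. Markers of the labelled cell type, the neutrophil, were scarce. The gene mpx itself was looked up but not found by symbol. The 22 neutrophil genes that were found took 0.0239% and 0.0447% of the counts in NRas+ and 0.0274% and 0.0349% in controls. Most of these counts came from 1 gene, CEBPB (ENSDARG00000042725), with 171.8 and 370.0 CPM in NRas+ against 227.4 and 158.3 CPM in controls. At the low end, the chemokine receptor gene cxcr1 (ENSDARG00000052088) had 0 counts in 3 of the 4 libraries. Skeletal muscle genes took 37.9% and 38.3% in NRas+, against 27.3% and 19.3% in controls. The neutrophil lysozyme gene lyz (ENSDARG00000057789) had 10.9 and 12.6 CPM in NRas+ libraries, against 12.6 and 3.002 CPM in controls, whereas the muscle actin gene actc1b (ENSDARG00000099197) had 121560 and 114034 CPM, against 68599 and 40295 CPM. Both MITF paralogs had at most 2.21 CPM in every library, mitfa being the paralog that the paper treats as specific to melanocytes. The 13 melanocyte genes that were found took more than MITF alone, with 0.0156% and 0.0201% of the counts in NRas+ and 0.0171% and 0.0419% in controls. The values below are therefore those of the RNA in the pulldown, and in such bulk samples fewer cells of a type and less RNA per cell cannot be told apart.

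No member passed the threshold of 0.05 on the adjusted p in either direction in edgeR's quasi-likelihood test, and none did in DESeq2. Among all 20099 genes tested, edgeR called 0.129% higher and 0.0398% lower in NRas+, and DESeq2 called 1.26% higher and 0.79% lower of the 18482 genes to which it gave an adjusted p. At an unadjusted p under 0.05 in edgeR, 2 members were lower, SPRED2 and SPRY4, and 0 were higher, where 6.11% of all genes were lower and 5.16% higher. In DESeq2 only 1 member, SPRED2, had an unadjusted p under 0.05. Of the 10 members, 5 had both NRas+ values below both control values and 1 had both above, where 21.8% and 20.5% of all genes did so. The other 4 overlapped between the groups. Fold changes were below 0 on the log2 scale for 7 members and above it for 3, with a median of -0.34, against a median of -0.04 over all genes tested with 52.1% of these below 0 and 47.9% above. Summed over the members, the level was 204.4 and 230.7 CPM in NRas+ libraries and 249.9 and 283.3 CPM in controls. Abundant members weigh most in this sum, among them SPRY4, with 36.9 and 69.7 CPM in NRas+ against 101.6 and 91.8 CPM in controls. The summed Sprouty genes overlapped between the groups, at 92.4 and 127.7 CPM in NRas+ against 125.9 and 140.6 CPM. The summed ETS genes did too, at 74.0 and 66.2 CPM against 68.5 and 84.2 CPM. The summed Spred genes and IL17RD did not overlap. An exact permutation of 2 libraries against 2 cannot give a two-sided p below 0.333, so no single value is tested that way.

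**Figure D1:**
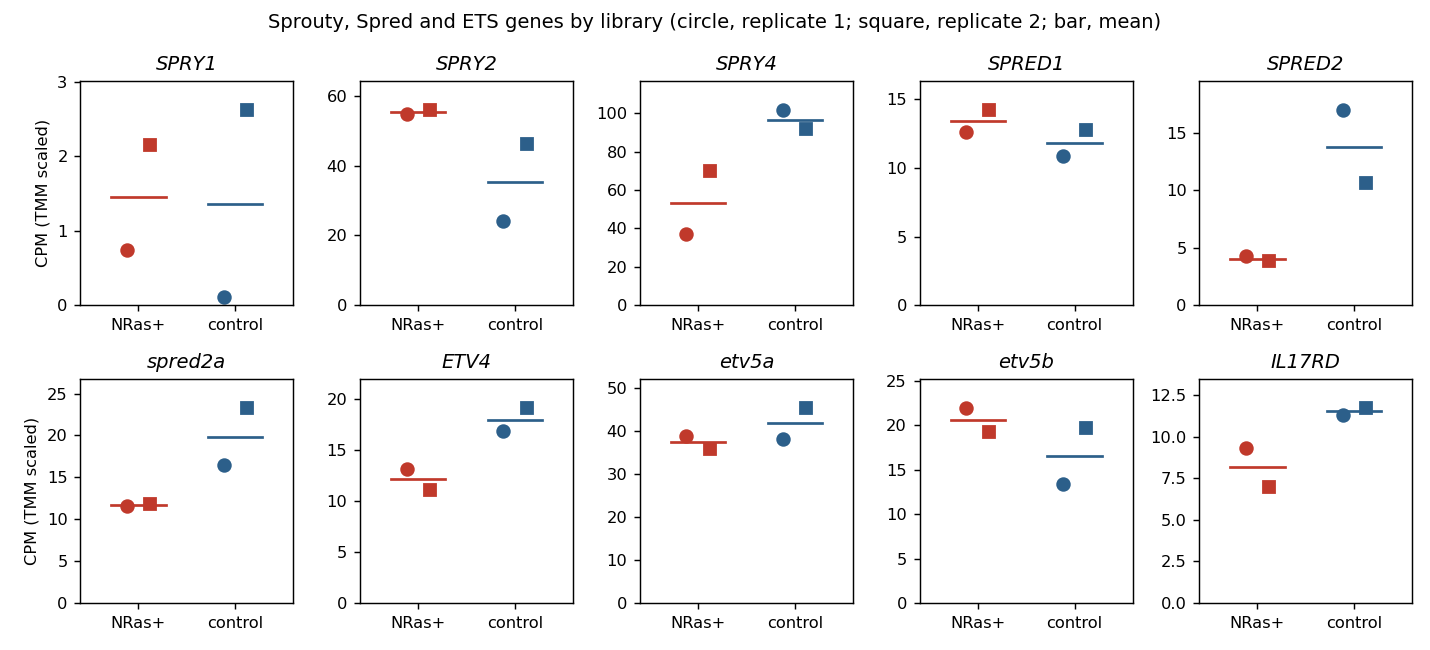
Level of each of the 10 genes in CPM (vertical axis, linear, from 0) in the NRas+ libraries (left, red) and control libraries (right, blue), circles for replicate 1, squares for replicate 2 and bars for the mean of n = 2. SPRY4, SPRED2, spred2a, ETV4 and IL17RD have both NRas+ points below both control points, SPRY2 has both above, and the other 4 genes overlap.

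The Sprouty genes had log2 fold changes of both signs. SPRY4 (ENSDARG00000068732), a feedback inhibitor whose transcription depends on FGF signalling in zebrafish embryos, had 36.9 and 69.7 CPM in NRas+ libraries, against 101.6 and 91.8 CPM in controls. Both NRas+ libraries were thus lower, and they lay further apart from each other than the controls did. The log2 fold change was -0.86 (standard error 0.39, 95% interval -1.68 to -0.04), and edgeR's quasi-likelihood test gave an unadjusted p of 0.0418 and an adjusted p of 0.42. DESeq2 gave an unadjusted p of 0.0548 and an adjusted p of 0.402. Without NRas+ 1 the log2 fold change was -0.47 and without NRas+ 2 it was -1.35, so the size rested on which NRas+ library was kept.

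SPRY2 (ENSDARG00000078308), an inhibitor of receptor signalling, had 54.8 and 55.8 CPM in NRas+ libraries, against 24.2 and 46.2 CPM in controls. The NRas+ libraries were almost equal and both above the controls, of which control 1 was the low one. The log2 fold change was 0.64 (standard error 0.40, 95% interval -0.19 to 1.47, adjusted p = 0.587), and it was 0.27 without control 1 and 1.21 without control 2. SPRY1 (ENSDARG00000103985), the Sprouty best known in mice for restraining kidney branching, was the only scarce member. It had 27 and 82 counts in NRas+ libraries, against 3 and 143 counts in controls, or 0.740 and 2.16 CPM against 0.112 and 2.62 CPM. The groups overlapped, replicate 1 being the low library of each, and the log2 fold change of -0.18 had a 95% interval of -2.37 to 2.01. The sign of this estimate turned with DESeq2, to 0.11, and without control 2, to 3.68, so no direction is given for SPRY1. Its abundance was below that of the other members, with 25.9% of the genes tested at a lower level, against between 65.0% and 94.8% for the rest.

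The Spred genes held the member with the largest difference. SPRED2 (ENSDARG00000008372) is the row that stands for spred2b, since RefSeq lists spred2 as a synonym of that paralog and spred2a has a row of its own. It had 4.31 and 3.81 CPM in NRas+ libraries, against 17.0 and 10.7 CPM in controls, from 157 and 145 counts against 456 and 582. Both NRas+ libraries were low and close to each other, and both controls were more than 2 times as high. The fold was 0.298 (95% interval 0.136 to 0.657), a log2 fold change of -1.74 with a standard error of 0.54. The unadjusted p was 0.0046 and the adjusted p 0.204 in edgeR's quasi-likelihood test, while DESeq2 gave 0.0777. The log2 fold change stayed between -2.04 and -1.38 with each library left out in turn, and was nearest to 0 without control 1. The adjusted p of SPRED2 ranged from 0.0777 to 1 over the 11 alternatives.

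The paralog spred2a (ENSDARG00000052435), which like SPRED2 encodes a protein that links Ras to its GTPase-activating protein, had 11.6 and 11.8 CPM in NRas+ libraries, against 16.4 and 23.3 CPM in controls. The groups did not overlap, and the difference, a log2 fold change of -0.77 (standard error 0.44, 95% interval -1.69 to 0.14, adjusted p = 0.533), was larger than the log2 ratio of 0.50 between the controls. Without control 2 it was -0.47. SPRED1 (ENSDARG00000041449), the gene mutated in Legius syndrome in humans, had 12.6 and 14.2 CPM in NRas+ libraries, against 10.8 and 12.8 CPM in controls. All 4 libraries lay close together and the groups overlapped, with a fold of 1.13 (95% interval 0.585 to 2.18). The summed level of the 3 Spred genes among the members was 28.5 and 29.8 CPM in NRas+ libraries and 44.2 and 46.7 CPM in controls. Replicates of a group differed little in this sum, but in controls opposite differences cancelled in it. The log2 ratio of control 2 to control 1 was -0.67 for SPRED2 and 0.50 for spred2a. SPRED3 (ENSDARG00000040358), a Spred gene that is not a member, was higher in both NRas+ libraries. It had 4.28 and 2.52 CPM there, against 0.968 and 1.65 CPM in controls. Its log2 fold change was 1.29 (95% interval -0.55 to 3.13), with an adjusted p of 0.625 in edgeR's quasi-likelihood test.

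The ETS factors of the PEA3 group had log2 fold changes between -0.58 and 0.30. ETV4 (ENSDARG00000018303), known as pea3 in zebrafish, had 13.2 and 11.1 CPM in NRas+ libraries, against 16.9 and 19.1 CPM in controls. Its NRas+ libraries were both lower, and the estimate of -0.58 on the log2 scale had a standard error of 0.44 (95% interval -1.49 to 0.34, adjusted p = 0.667). The gene etv5a (ENSDARG00000069763) had 38.9 and 35.8 CPM in NRas+ libraries, against 38.2 and 45.4 CPM in controls, and the groups overlapped. Its fold of 0.892 had a 95% interval of 0.518 to 1.53, which leaves out a 2-fold difference in either direction. The gene etv5b (ENSDARG00000044511), called erm in the zebrafish literature on FGF signalling, had 22.0 and 19.3 CPM in NRas+ libraries, against 13.4 and 19.7 CPM in controls. Here control 1 alone was low, and the log2 fold change was 0.30 (95% interval -0.58 to 1.18), or 0.0760 without control 1 and 0.64 without control 2. The remaining gene of the group, ETV1 (ENSDARG00000101959), had 2.28 and 9.83 CPM in NRas+ libraries, against 12.5 and 5.77 CPM in controls. Its replicates differed more than its groups, and its log2 fold change of -0.54 turned to 0.09 without control 1 and to 0.13 without NRas+ 1.

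IL17RD (ENSDARG00000098359), the membrane inhibitor Sef, had 9.35 and 6.99 CPM in NRas+ libraries, against 11.3 and 11.7 CPM in controls. Both NRas+ libraries were lower, and the log2 fold change of -0.50 had a standard error of 0.49 (95% interval -1.53 to 0.53, adjusted p = 0.754). Without NRas+ 2 it was -0.27. DUSP6 (ENSDARG00000070914), the ERK phosphatase that ERK signalling induces alongside these genes, had 46.4 and 48.2 CPM in NRas+ libraries, against 28.6 and 46.7 CPM in controls. Its fold of 1.25 had a 95% interval of 0.713 to 2.18. As in SPRY2 and etv5b, the other libraries lay close together and control 1 was the low one. The median absolute log2 ratio between replicates was 0.18 in NRas+ and 0.37 in controls for the members, against 0.58 and 0.76 over all genes tested, many of which have fewer counts. Of the single members, SPRY1 (4.55 in controls and 1.54 in NRas+), SPRY2 (0.93 in controls) and SPRY4 (0.92 in NRas+) had ratios above these medians over all genes. In 4 of the 10 members the log2 fold change exceeded the log2 ratio between the replicates of each group, where 24.3% of all genes tested did so.

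**Figure D2:**
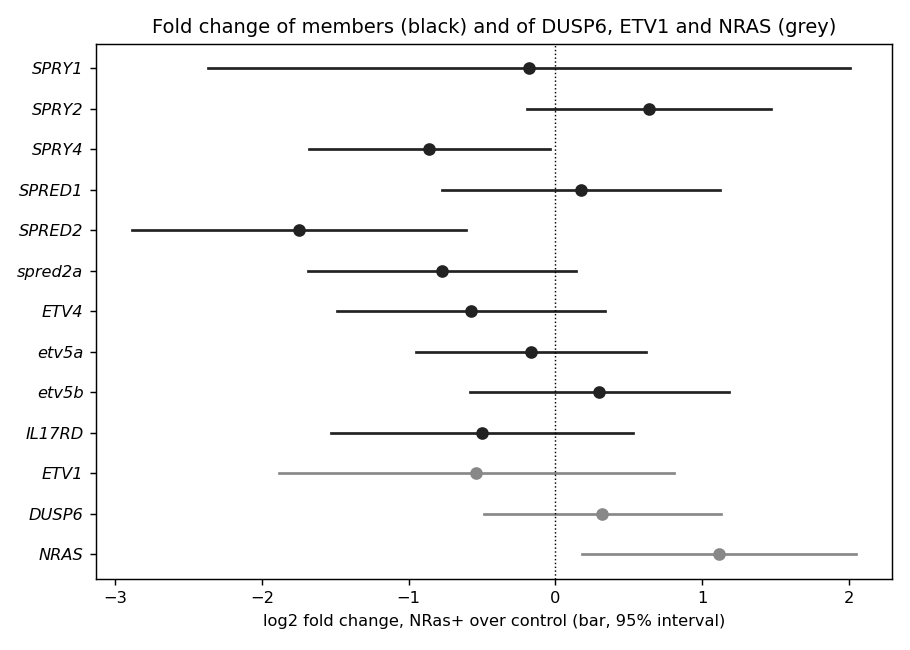
Log2 fold change of NRas+ over control (horizontal axis) for the 10 members in black and for ETV1, DUSP6 and NRAS in grey, with points for the estimate of edgeR's quasi-likelihood fit on 2 libraries against 2 and bars for its 95% interval. The intervals of SPRED2 and SPRY4 lie below 0, at -2.88 to -0.61 and -1.68 to -0.04, that of NRAS lies above 0, and the others span it. These intervals are not adjusted for the number of genes tested.

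Ratios of raw counts between members of one library do not depend on how libraries are scaled. The 3 ratios given here were chosen after the values were seen and were not tested. SPRY4 had 0.674 and 1.25 counts for each count of SPRY2 in NRas+ libraries, against 4.20 and 1.99 in controls. SPRED2 had 0.341 and 0.269 counts for each count of SPRED1 in NRas+ libraries, against 1.57 and 0.834 in controls. In both pairs the NRas+ libraries were lower. All 3 ratios follow from the levels above and are no separate evidence. For SPRY4 over SPRY2, both NRas+ libraries were lower for SPRY4 and higher for SPRY2. The ratio of etv5b to ETV4 was 1.67 and 1.74 in NRas+ libraries and 0.795 and 1.03 in controls, so it was higher in NRas+. Log2 fold changes of both signs occurred within each of the Sprouty, Spred and ETS groups. Transcript lengths differ between genes, so a ratio can be set against the same ratio in another library but is not a ratio of molecules.

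**Figure D3:**
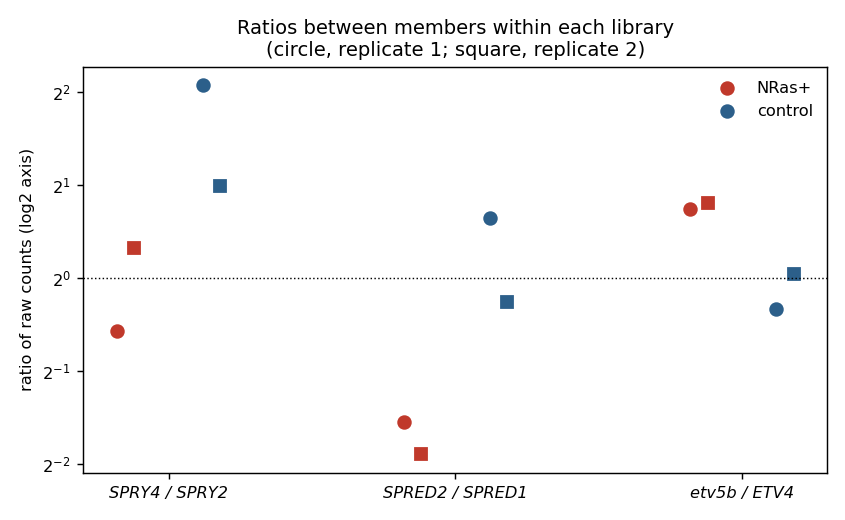
Ratio of raw counts between a pair of members within each library (vertical axis, log2 scale) for SPRY4 over SPRY2, SPRED2 over SPRED1 and etv5b over ETV4, NRas+ in red at the left of each pair and control in blue, circles for replicate 1 and squares for replicate 2. NRas+ points lie below control points in the left and middle pairs, at 0.674 and 1.25 against 4.20 and 1.99 for SPRY4 over SPRY2, and above them in the right pair.

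The rest of the pathway was described by 5 lists, none of which held a gene past the adjusted threshold in edgeR's quasi-likelihood test or in DESeq2. Of 19 other ERK output genes, 3 had a log2 fold change above 0 and 16 one below it, where 47.9% and 52.1% of all genes did. The median of the list was -0.56, against -0.04 over all genes tested. At an unadjusted p under 0.05, 1 gene was lower and 0 were higher, where 6.11% and 5.16% of all genes were. That gene, PHLDA1 (ENSDARG00000099129), an ERK-induced gene of the pleckstrin homology-like family, had 30.2 and 21.2 CPM in NRas+ libraries, against 171.0 and 26.4 CPM in controls. Control 1 stood far above the other 3 libraries, and the log2 fold change of -1.93 (adjusted p = 0.183) rested on it. Without control 1 it was -0.0236 (adjusted p = 0.989), whereas without control 2 it was -2.71 and passed the threshold (adjusted p = 0.0035). FLRT3 (ENSDARG00000076895), a membrane protein that binds FGF receptors, had 23.0 and 21.4 CPM in NRas+ libraries, against 34.2 and 42.4 CPM in controls (adjusted p = 0.457). One EPHA4 paralog (ENSDARG00000010767), an ephrin receptor gene, had 1.26 and 1.95 CPM in NRas+ libraries, against 8.30 and 2.45 CPM in controls. Its log2 fold change of -1.63 (adjusted p = 0.497) was -0.60 without control 1 and -2.34 without control 2.

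Of 26 receptors and adaptors, 12 had both NRas+ values below both control values and 3 had both above, where 21.8% and 20.5% of all genes did, and the median log2 fold change was -0.63. At an unadjusted p under 0.05, 4 were lower and 0 higher, where 6.11% and 5.16% of all genes were. FGFR3 (ENSDARG00000004782), a receptor for FGF ligands, had 43.0 and 63.4 CPM in NRas+ libraries, against 111.8 and 112.9 CPM in controls. The log2 fold change was -1.08 (standard error 0.38, adjusted p = 0.264), and the controls were nearly equal. An FGFR1 paralog (ENSDARG00000011027) had 22.3 and 19.5 CPM in NRas+ libraries, against 31.1 and 52.6 CPM in controls, a log2 fold change of -1.01 (adjusted p = 0.341) that was -0.55 without control 2. The PDGF receptor gene PDGFRB (ENSDARG00000100897), which marks pericytes and other mesenchyme, had 2.06 and 1.13 CPM in NRas+ libraries, against 10.5 and 5.91 CPM in controls (adjusted p = 0.206). KIT (ENSDARG00000043317), whose zebrafish copy kita lends its promoter to the driver, had 1.04 and 3.10 CPM in NRas+ libraries, against 1.23 and 2.65 CPM in controls.

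Of 22 Ras brakes and partners, 12 had both NRas+ values below both control values and 1 had both above, against 21.8% and 20.5% of all genes, with a median log2 fold change of -0.44. At an unadjusted p under 0.05, 5 were lower and 1, erfl1 (ENSDARG00000086892), was higher, where 6.11% and 5.16% of all genes were. CBLB (ENSDARG00000015199), a ubiquitin ligase of the family that binds Sprouty proteins and marks receptors for degradation, had 7.62 and 6.57 CPM in NRas+ libraries, against 22.1 and 18.7 CPM in controls (log2 fold change -1.52, adjusted p = 0.191). The Ras GTPase-activating genes RASAL2 (ENSDARG00000036257) and dab2ipb (ENSDARG00000075110) had log2 fold changes of -1.09 and -1.07 (adjusted p = 0.279 and 0.29). Replicates of these genes lay closer together than the groups did.

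The 16 genes listed as kinases of the cascade, which include scaffolds such as SHOC2, stood nearest to 0. Their median log2 fold change was -0.06, with 7 above 0 and 9 below, and none had an unadjusted p under 0.05. Among all genes tested, 47.9% were above 0 and 52.1% below, with 5.16% higher and 6.11% lower at that unadjusted p. KSR2 (ENSDARG00000094526), a scaffold of the cascade, and an RPS6KA3 paralog (ENSDARG00000057927), a kinase downstream of ERK, had log2 fold changes of 0.99 and -0.89. Of the other ETS factors 17 could be tested, with a median of -0.17, and at an unadjusted p under 0.05 only ELF3 was higher and ETS1 lower. ELF3 (ENSDARG00000077982), an epithelial ETS factor, had 5.13 and 12.4 CPM in NRas+ libraries, against 0.335 and 2.45 CPM in controls (adjusted p = 0.206). The controls differed by 2.87 on the log2 scale, more than the log2 fold change of 2.42, which was 1.86 without control 1, 4.72 without control 2 and 1.74 without NRas+ 2. ETS1 (ENSDARG00000024431), which ERK phosphorylates, had 12.1 and 17.9 CPM in NRas+ libraries, against 28.2 and 31.2 CPM in controls (adjusted p = 0.368). ELK1 (ENSDARG00000078066), another ERK substrate, had 3.21 and 2.31 CPM in NRas+ libraries, against 8.49 and 3.99 CPM in controls. Its log2 fold change of -1.11 (adjusted p = 0.597) was -0.52 without control 1 and -1.60 without control 2.

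**Figure D4:**
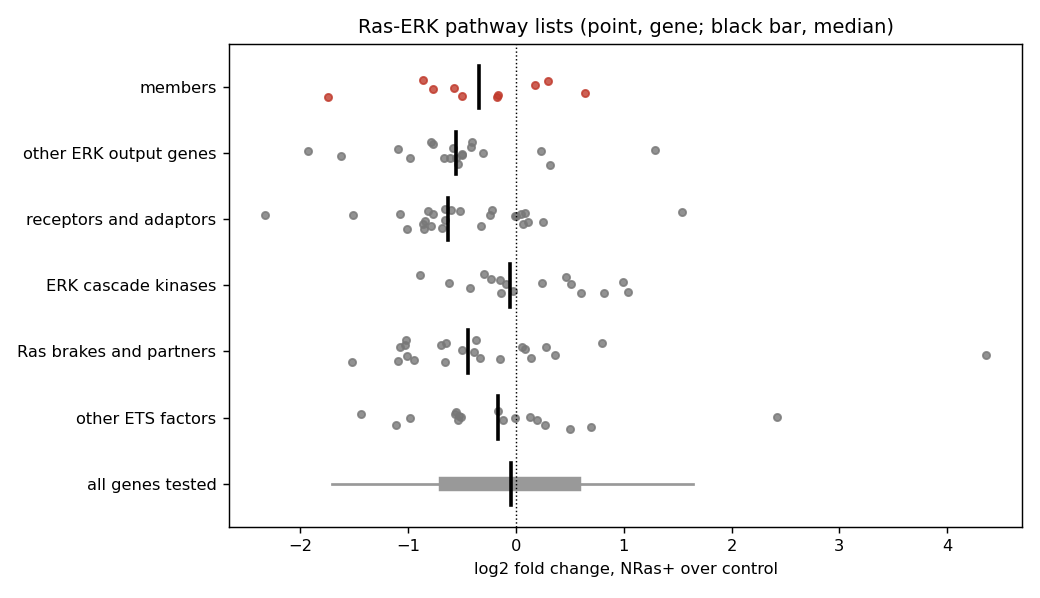
Log2 fold change of NRas+ over control (horizontal axis) for each gene tested of the members (red) and of 5 lists of Ras-ERK genes (grey), with black bars for the medians, above a bar for all 20099 genes tested (thin line, 5th to 95th percentile, -1.70 to 1.64; thick bar, 25th to 75th, -0.65 to 0.54). Medians run between -0.63 for receptors and adaptors and -0.06 for the list of cascade kinases, which also holds scaffolds. The single point past 4 is erfl1, which had at most 3 counts in each control, so that its value depends on the prior count of the fit.

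The cell type markers differed between the same libraries. Genes of neural crest and cartilage took 0.194% and 0.247% of the counts in NRas+, against 0.298% and 1.07% in controls, and of these 22 genes 20 had a log2 fold change below 0, with a median of -0.98, and 1 passed the adjusted threshold in edgeR, SOX9 (ENSDARG00000003293), a cartilage transcription factor that was lower. That call was lost without control 1 (adjusted p = 0.122), without either NRas+ library (0.654 and 0.492), with no filter on low counts (0.0765), with the replicate number as a block (0.12) and in edgeR's legacy fit (0.158). At an unadjusted p under 0.05, 11 genes of this list were lower and 1 higher, and DESeq2 called 2 lower. Over all genes tested, 52.1% had a log2 fold change below 0. At that unadjusted p, 6.11% of all genes were lower and 5.16% higher, and DESeq2 called 0.79% lower and 1.26% higher. The 10 endothelial genes had a median of -0.48 and took 0.0118% and 0.0133% in NRas+, against 0.0148% and 0.0292% in controls. The median was 0.55 over 35 skeletal muscle genes, none of which passed in edgeR, where 5 were higher and 2 lower at an unadjusted p under 0.05, while DESeq2 called 4 higher. It was 0.68 over 23 epidermal ones, which took 0.608% and 0.274% in NRas+ and 0.447% and 0.307% in controls, with 8 higher and 0 lower at an unadjusted p under 0.05 and 2 called higher by DESeq2. It was -0.13 over 21 neuronal genes, 0.20 over 19 neutrophil genes tested, 0.35 over 10 macrophage ones and -0.58 over 11 melanocyte ones. The 13 melanocyte genes found took 0.0156% and 0.0201% of the counts in NRas+ and 0.0171% and 0.0419% in controls. Lens and eye genes took 0.000161% and 0.00867% of the counts in NRas+, against 5.23e-05% and 0.000118% in controls, so that NRas+ 2 alone held most of them. Of the 3 tested in edgeR, 2 overlapped between the groups. DESeq2 called 3 of the 14 genes on the list higher. CRYBB1 (ENSDARG00000068507), a lens crystallin, passed in edgeR (adjusted p = 0.0206) with 1.54 and 45.9 CPM in NRas+ libraries, against 0.112 and 0.0915 CPM in controls, and this call was lost without NRas+ 2 (adjusted p = 0.584), without either control (0.335 and 0.112), with the replicate block (0.0697) and in edgeR's legacy fit (0.129). What part these differences had in the levels of the Sprouty, Spred and ETS genes was not tested.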

How the data were processed

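Reads of 4 SMART-seq v4 libraries had been mapped by the authors to Zv10/danRer10 with STAR 2.4.2a and counted with featureCounts, and the deposited values are raw counts per Ensembl gene, 1 column per library. The text names standard counting parameters, which ignore strand, while the labels name a reverse strand, so counts of overlapping genes are uncertain. Counts of near-identical paralogs, which the strand does not settle, may be uncertain as well. In the RefSeq table of assembly GRCz12tu, another build, 5 of the 10 members overlap another gene (for spred2a, meis1a). No coordinates or sequences are given.

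Symbols paired with 26121 of 31952 genes. After filterByExpr had left 20099 genes, TMM factors were computed and groups compared with edgeR 4.0.16 in R 4.3.3, by its quasi-likelihood test and Benjamini-Hochberg adjustment over these genes. Standard errors were computed as the absolute log2 fold change over the square root of the F statistic of that test. Intervals are 95% intervals built from them. The script was tested on simulated data. Alternatives were DESeq2 1.42.0 without a prior, RLE factors, TMM without the muscle genes, no filter, at least 10 counts in every library, the legacy fit, the replicate number as a block, and leaving out each library.

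All members are named, with DUSP6, ETV1 and NRAS, and from each pathway list the genes past the threshold or otherwise the 3 with the smallest unadjusted p, of which 1 is not reported here. MITF, lyz and actc1b were also on the naming rule as label checks. SPRED3 was named outside that rule, as a Spred gene that is not a member. The members and lists were chosen with earlier results of these data known. The paper calls the replicates biological in places and technical in others, and speaks of independent experiments. It gives their number as 3, whereas 2 libraries per group were available here. The p-values rest on the spread between these libraries, with the variance of each gene in edgeR drawn toward that of other genes. Reads are not independent molecules.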

Additional observations from a re-analysis of the deposited data

How the results depend on the processing

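No member passed the adjusted threshold under any of the 11 alternatives. The unadjusted p of SPRY4 was 0.0548 in DESeq2. In edgeR's quasi-likelihood test it was 0.0418 in the main fit, 0.0514 with no filter and 0.0575 in the legacy fit. With DESeq2, no filter and the legacy fit, 1 member, SPRED2, had an unadjusted p under 0.05. The median log2 fold change of the members, -0.34, was -0.48 over the 9 members with at least 10 counts in every library, which leaves out SPRY1, and lay between -0.58 (without control 1) and -0.23 (without control 2) with 1 library left out. The median over all genes moved as well, to -0.0075 without control 1, 0.13 without control 2, -0.018 without NRas+ 1 and -0.14 without NRas+ 2. The member median minus that of all genes was -0.57, -0.36, -0.32 and -0.21 in that order, against -0.30 in the main fit. The numbers of all genes called higher and lower, 26 and 8, were 233 and 146 with DESeq2, 88 and 64 with at least 10 counts in every library, 10 and 0 with the legacy fit, and 7 and 0 with the replicate block, and no filter gave 2 lower. With 1 library left out, the numbers ranged from 6 to 88 higher and from 0 to 263 lower. An arm with 1 library is assumed to vary like the other. The replicate numbers pair no libraries by the labels. Over the 20099 genes tested, the log2 difference between replicates in NRas+ correlated by 0.178 with that in controls. Fewer genes had counts in replicate 1 of both groups, with 21191 in NRas+ 1 and 21205 in control 1, against 24490 in NRas+ 2 and 25111 in control 2. With the block, the log2 fold change of SPRED2 was -1.73 (adjusted p = 0.247) and that of SPRY4 was -0.92 (adjusted p = 0.348). The estimate of SPRY1 turned positive with DESeq2 (0.11), the legacy fit (0.0740) and the block (0.16), and lay between -1.05 and 3.68 with 1 library left out, positive without control 2 and without NRas+ 1 (0.47). That of KIT, near 0, did with DESeq2 (0.11), RLE (0.0239), at least 10 counts (0.0358), the legacy fit (0.0899) and the block (0.0784), and lay between -0.94 and 0.78 with 1 library left out. With 1 library left out, ETV1 lay between -1.94 and 0.13, the neutrophil gene lyz between -0.0798 and 1.98, and the MITF paralogs between -3.06 and 0.30 (ENSDARG00000003732) and between -0.26 and 2.05 (ENSDARG00000037833). The cause was not tested. The other 9 members kept their sign in every alternative.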
